A study of Homo sapiens with 14 samples.

Results

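Tumours grown from FASN knockdown cells were compared with tumours grown from control cells, both kept in regular medium before engraftment, using 6 of the 14 RNA sequencing libraries of the series. The 3 FASN knockdown and the 3 control libraries were chosen by their titles, none of which names smoke. The cells were UMUC3, a human bladder cancer line, and grew as xenografts in mice, so that RNA was taken from frozen tumour tissue with a column kit. By their titles, the control cells carried a control short hairpin RNA (sh). How FASN was knocked down, how many hairpins or clones were used and how the libraries fall on animals were not given in any source used here. The p-values below therefore measure library-to-library spread, part of which may be technical. The other 8 libraries, 4 FASN knockdown and 4 control, came from cells pre-exposed to 10% cigarette smoke medium (CSM) before engraftment, and they are used below only where named.

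FASN encodes fatty acid synthase, the cytosolic enzyme that builds palmitate from acetyl-CoA and malonyl-CoA. Palmitate feeds membrane lipids, stored fat and the lipid tails of proteins, and many carcinomas express the enzyme strongly. The sterol-responsive factors of the SREBP family drive FASN together with the desaturases and the enzymes of cholesterol synthesis, so these groups are usually read beside each other.

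The summed counts of the 6 libraries ran from 15810287 in FASN knockdown replicate 2 to 43452910 in control replicate 1. Of these, 7SL RNA, the abundant RNA of the signal recognition particle, took 12.9%, 25.6% and 3.89% in FASN knockdown replicates 1 to 3, against 6.35%, 8.66% and 9.38% in control replicates 1 to 3. The FASN knockdown libraries were also less alike than the controls. The median SD of log2 CPM over the 22560 tested genes was 0.68 among the FASN knockdown libraries and 0.36 among the control libraries, and for 76.6% of genes it was larger among the FASN knockdown libraries. Spearman's correlation across genes was 0.909 between FASN knockdown replicates 2 and 3, against 0.958 to 0.973 between control libraries. CPM are counts divided by the library total scaled by TMM (edgeR's trimmed mean of M values) and multiplied by 1000000, and in the sentences below 3 values of a group stand in the order of replicates 1, 2 and 3.

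The targeted gene was lower in every FASN knockdown library. FASN (ENSG00000169710.9, chromosome 17, 82078333 to 82098332, minus strand, GRCh38) stood at 121, 99.9 and 132 CPM in the FASN knockdown libraries, against 571, 404 and 379 CPM in the control libraries. That is 26.7%, 22.1% and 29.1% of the control mean, and the groups did not overlap. FASN fell by 1.94 on the log2 scale (SE 0.33, n = 3 each). The quasi-likelihood test of edgeR, adjusted over all genes by Benjamini and Hochberg's method, gave an adjusted p of 0.0245. In TPM, transcripts per 1000000 as deposited, FASN averaged 17.3 ± 14.7 in the FASN knockdown and 54.6 ± 10.9 in the control libraries (SD, n = 3 each). The FASN knockdown libraries thus differed more from each other in TPM than in CPM, where their mean was 117 with an SD of 16.1. An exact two-sided permutation test on CPM gave p = 0.1, the smallest value that 3 against 3 libraries allow. Leaving out any 1 of the 6 libraries ended the call, at an edgeR adjusted p of 0.0549 without control replicate 3 up to 0.137 without FASN knockdown replicate 2, while the log2 fold change stayed between -2.07 and -1.73.

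Among the 22560 genes tested, 46 were called at an adjusted p below 0.05, which is 0.204%. Of these, 6 were higher (0.0266% of genes) and 40 were lower (0.177%) in the FASN knockdown libraries, and all 46 separated the groups without overlap, as 4.8% of all tested genes did upwards and 7.04% did downwards. FASN was the 25th of all genes by p and the 32nd by size among the 40 falls, so that 31 genes fell by more than the targeted gene itself. The median log2 fold change over all genes was 0.02. All 46 genes were called by DESeq2 too, which called 346 (1.53%), and 2049 genes (9.08%) had an unadjusted p below 0.05. Of the 46 genes, 11 kept their call in all 6 fits without 1 library, and 35 lost it in at least 1. Lost were 17, 35 and 30 calls without control replicates 1, 2 and 3, and 25, 30 and 26 without FASN knockdown replicates 1, 2 and 3. The 46 calls comprised 40 of 14525 protein-coding genes and 6 of 6090 long noncoding RNA genes, and none of 1115 pseudogenes.

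**Figure D1:**
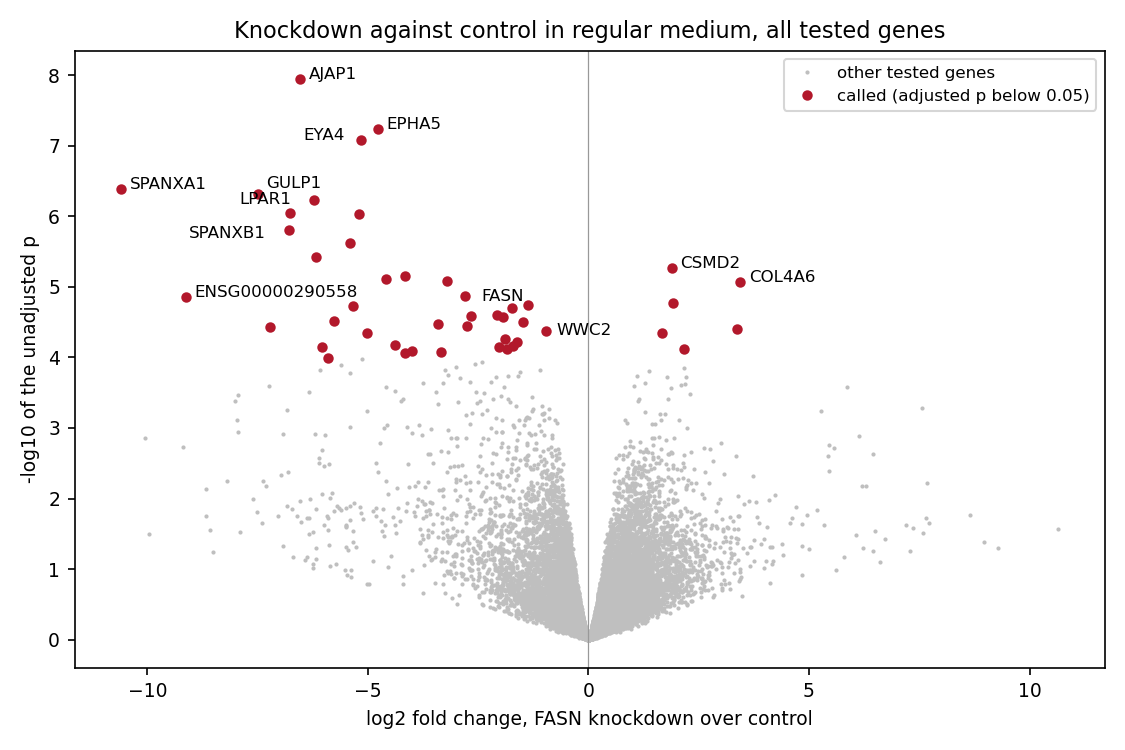
Each point is 1 of the 22560 tested genes, with the log2 fold change (FASN knockdown over control, n = 3 each) on the x axis and -log10 of the unadjusted edgeR p on the y axis. The 46 called genes are the large points, 40 to the left of 0 and 6 to the right, and FASN lies among the smaller falls.

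The largest falls were of genes that the control tumours expressed and the FASN knockdown tumours nearly lacked. Of the 40 lower genes, 20 stood below 5% of the control mean, 19 between 5% and 50%, and only WWC2 above, at 51.0%. They include cancer-testis genes, receptors, ion channels, adhesion and matrix genes and developmental transcription factors. In bulk tumour RNA, fewer cells expressing a gene and less RNA per cell cannot be told apart.

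Cancer-testis genes are normally silent outside the germ line and are switched on in many tumours. The SPANX genes of chromosome X, whose proteins sit in the sperm nucleus, are copies of one another. SPANXA1 (chromosome X, 141583674 to 141585011) was at 0 CPM in all 3 FASN knockdown libraries, against 6.71, 4.23 and 5.63 CPM in the control libraries. The counts were 0 in the FASN knockdown and 661 in the control group. With the FASN knockdown group set to a floor of 3 counts, that is at least 140-fold lower, counting error alone considered. This bound leaves out how reads were divided among the copies, and so does not hold for SPANXA1 with certainty. The near copy SPANXA2 had 17 counts in the FASN knockdown and 1720 in the control group. SPANXB1 stood at 0.280, 0.339 and 0.262 CPM in the FASN knockdown libraries, against 56.9, 23.8 and 14.7 CPM in the control libraries, and fell by 6.79 (SE 0.90, edgeR adjusted p = 0.00389). SPANXA2 and SPANXD fell by 5.77 and by 5.89, and SPANXC, at 0 CPM in every FASN knockdown library and 2.67, 0.394 and 0.0789 CPM in the control libraries, did not pass the test (edgeR adjusted p = 0.306). Thus edgeR called 4 of the 5 tested SPANX genes, where 0.177% of all tested genes were called lower. DESeq2 called all 5, SPANXC included, where it called 1.53% of all tested genes. All 5 separated the groups without overlap, as 7.04% of all tested genes did downwards. As copies of one another they are not separate observations. The calls of SPANXA1 and SPANXB1 held in all 6 fits without 1 library. SPANXA2 lost its call in 4 of them (without control replicate 2 and without each FASN knockdown replicate, up to 0.101) and SPANXD in all 6 (up to 0.176, without FASN knockdown replicate 2).

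The sequences upstream of SPANXA1, SPANXA2 and SPANXC are nearly the same. Those of SPANXB1 and SPANXD matched SPANXA1 less well when compared without gaps. Reads of single copies cannot be told apart with certainty. Shown are the 250 bases before the annotated start of SPANXA1 (chrX:141584739-141584988, minus strand) and of SPANXC (chrX:141242518-141242767, minus strand) from RefSeq, GRCh38.p14, 5′ to 3′, with capitals at the 3 bases of SPANXC that differ from SPANXA1.
SPANXA1: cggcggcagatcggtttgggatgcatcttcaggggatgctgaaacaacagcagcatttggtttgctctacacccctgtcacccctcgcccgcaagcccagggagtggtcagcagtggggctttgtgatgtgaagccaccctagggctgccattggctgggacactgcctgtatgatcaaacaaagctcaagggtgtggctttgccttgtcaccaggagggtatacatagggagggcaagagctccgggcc
SPANXC: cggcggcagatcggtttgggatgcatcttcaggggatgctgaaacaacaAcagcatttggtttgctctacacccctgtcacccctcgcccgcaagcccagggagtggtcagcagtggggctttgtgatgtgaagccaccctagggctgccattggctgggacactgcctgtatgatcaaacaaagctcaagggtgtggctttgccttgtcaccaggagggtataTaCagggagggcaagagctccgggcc
The window of SPANXA2 is the same as that of SPANXA1 at all 250 bases. That of SPANXB1, moved by 39 bases, matches it at 72% of 211 bases. That of SPANXD, moved by 3 bases, matches it at 29.6% of 247 bases. The comparison allowed no gaps, and whether a gap or another start would give a closer match was not tested.

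Of 8 other tested cancer-testis genes 1 was called. PRAME, a melanoma antigen of chromosome 22, fell by 2.03 (SE 0.38, edgeR adjusted p = 0.0407), with 1.30, 2.63 and 1.75 CPM in the FASN knockdown libraries against 10.1, 6.99 and 5.79 CPM in the control libraries. Its call was lost in all 6 fits without 1 library, up to 0.188 without control replicate 1. Of the remaining 7, 4 had a positive and 3 a negative log2 fold change. MAGEA1, at 0.105, 0 and 0 CPM in the FASN knockdown libraries against 1.42, 0.366 and 0.184 CPM in the control libraries, was lower without overlap and had an unadjusted p below 0.05. The mean log2 CPM of the 8 genes, PRAME included, relative to the control mean was -0.27, -0.25 and -0.89 in the FASN knockdown libraries, below the 0.23, -0.01 and -0.22 of the control libraries, while the median log2 fold change was 0.09. MAGEA10 averaged 79.9 CPM ± 4.69 in the FASN knockdown and 70.6 CPM ± 8.57 in the control libraries, and MAGEA4 averaged 93.5 CPM ± 31.7 in the FASN knockdown and 76.8 CPM ± 4.32 in the control libraries (SD, n = 3 each).

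Receptors for lipid and guidance signals were among the near-absent genes. LPAR1, a receptor for lysophosphatidic acid, a signalling phospholipid, stood at 0.666, 0.0847 and 0 CPM in the FASN knockdown libraries, against 17.4, 27.8 and 15.5 CPM in the control libraries. It fell by 6.22 (SE 0.77, edgeR adjusted p = 0.00222) and was the 1 called gene of 10 tested in lysophosphatidic acid signalling, whose median log2 fold change was 0.02. LPAR2 averaged 5.68 CPM ± 6.78 in the FASN knockdown and 5.35 CPM ± 1.22 in the control libraries (SD, n = 3 each). EPHA5, an ephrin receptor, had 4.83, 5.85 and 1.31 CPM in the FASN knockdown libraries against 82.8, 142 and 96.3 CPM in the control libraries, and ADGRL3, an adhesion receptor of the latrophilin family, had 2.63, 2.97 and 1.19 CPM in the FASN knockdown against 101, 137 and 43.4 CPM in the control libraries. Both lay far below every control, and fell by 4.78 (SE 0.49) and by 5.41 (SE 0.75). LPAR1, EPHA5 and ADGRL3 kept their calls in all 6 fits without 1 library.

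Genes of junctions, channels and the cell surface were also among the falls. AJAP1, which encodes an adherens junction protein and lies on chromosome 1 (4654732 to 4792534), had the smallest p of all genes. It stood at 0.701, 0.339 and 0.204 CPM in the FASN knockdown libraries, against 64.5, 31.8 and 21.1 CPM in the control libraries, and fell by 6.53 (SE 0.60, edgeR adjusted p = 0.000255). TRPC4, a cation channel, had 0.175, 0 and 0.116 CPM in the FASN knockdown and 11.8, 16.1 and 10.5 CPM in the control libraries, and fell by 6.75 (SE 0.86). The engulfment adaptor gene GULP1 had 2 counts over the FASN knockdown group and 639 over the control group, a 203-fold difference after scaling (exact 95% counting interval 55.9 to 1677). SPOCK3, a proteoglycan, had 2 counts over the FASN knockdown group and 617 over the control group (196-fold, 53.9 to 1620). The potassium channel gene KCNT2 had 0.0701, 0 and 0.0582 CPM in the FASN knockdown libraries and 1.83, 2.85 and 1.92 CPM in the control libraries, and fell by 5.33 (SE 0.88). AJAP1, TRPC4 and GULP1 kept their calls in all 6 fits without 1 library, while SPOCK3 lost its call in 5 (all but that without FASN knockdown replicate 2, up to 0.105) and KCNT2 in 5 (all but that without control replicate 1, up to 0.0993).

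**Figure D2:**
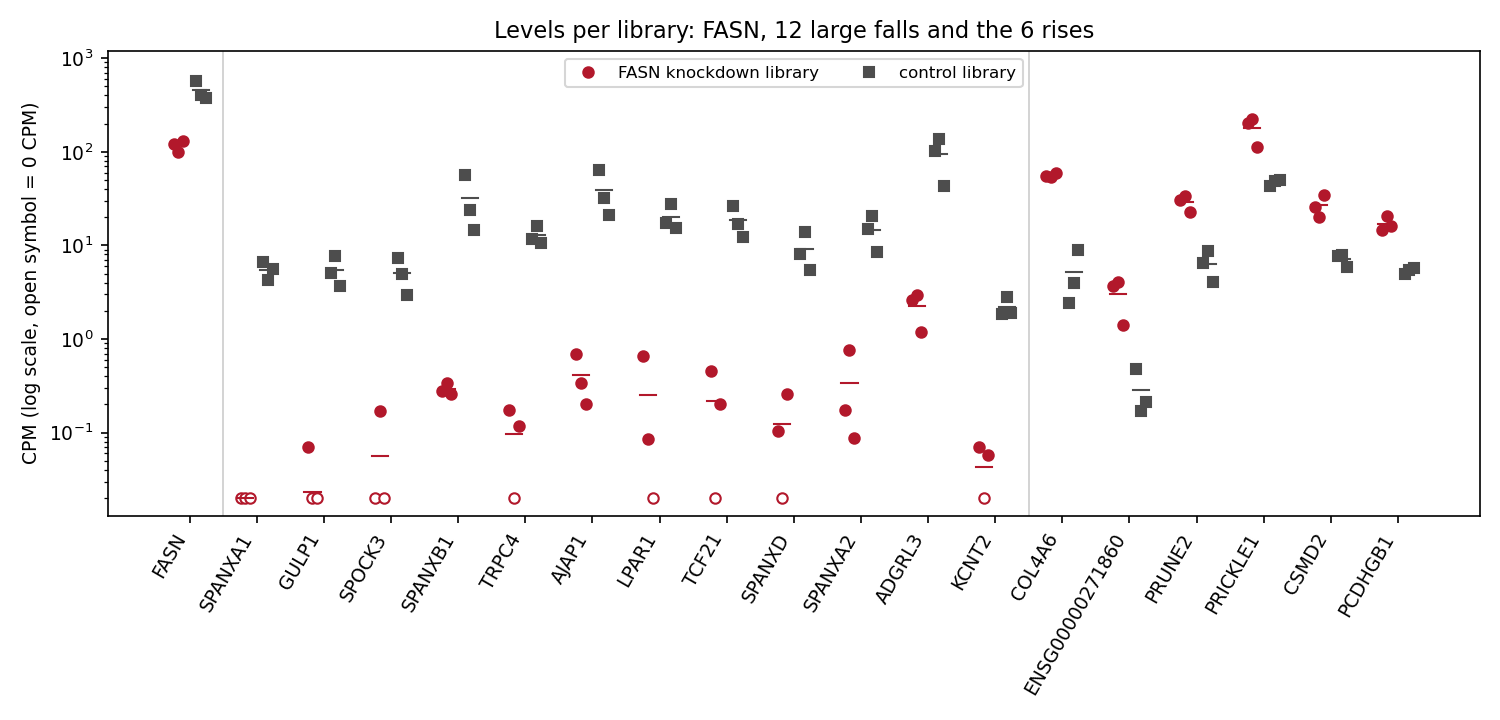
CPM on a log scale for FASN, for the 12 largest falls among called genes with at least 2 CPM in the control mean, and for the 6 rises, with 1 symbol per library (circles, FASN knockdown; squares, control) and a line at each group mean (n = 3). Open circles mark 0 CPM, and for all of these genes the groups do not overlap.

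The start of AJAP1 lies in a stretch rich in CG pairs, the sites of DNA methylation. The 250 bases before it (chr1:4654359-4654608, plus strand, RefSeq, GRCh38.p14) are shown with each CG in capitals.
AJAP1: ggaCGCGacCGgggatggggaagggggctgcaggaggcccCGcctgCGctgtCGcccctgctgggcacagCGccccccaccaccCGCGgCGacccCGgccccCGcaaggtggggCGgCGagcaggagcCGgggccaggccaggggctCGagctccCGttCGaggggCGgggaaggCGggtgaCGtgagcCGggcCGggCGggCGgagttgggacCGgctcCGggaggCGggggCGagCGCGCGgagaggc
This window holds 32 CG pairs, and that of EYA4 holds 36. Of the 40 lower genes 29 have such a window, with a median of 9 CG pairs and a range of 1 to 36. The pair occurs in 98.9% of the windows of 13160 tested genes, at a median of 19, and CG reads the same on both strands. High and low CG content both occur among the falls: the windows of TRPC4 and GULP1 hold 17 each, those of SPANXA1 and TCF21 hold 6 and 5.

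A transcription factor group on chromosome 6 fell together. EYA4, a developmental phosphatase and transcription cofactor, had 0.561, 0.254 and 0.437 CPM in the FASN knockdown libraries against 15.9, 16.5 and 14.4 CPM in the control libraries, and fell by 5.15 (SE 0.54, edgeR adjusted p = 0.000630). TCF21, a factor of mesenchymal cells, had 0.455, 0 and 0.204 CPM in the FASN knockdown against 26.1, 17.01 and 12.3 CPM in the control libraries, and fell by 6.17 (SE 0.88). TARID, a long noncoding RNA that is antisense to this locus and known to keep the TCF21 promoter unmethylated, had 0.455, 0.254 and 0.524 CPM in the FASN knockdown against 8.21, 14.5 and 8.73 CPM in the control libraries, and fell by 4.60 (SE 0.70). All 3 were at or under 0.561 CPM in every FASN knockdown library. EYA4 and TCF21 kept their calls in all 6 fits without 1 library, and TARID lost its call in 3 (without control replicate 2 and FASN knockdown replicates 1 and 2, up to 0.0628). The use of strand in the counting is not given in the sources used here, so reads of TARID and of EYA4 and TCF21, which it overlaps, cannot be told apart with certainty.

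In RefSeq, TCF21 and TARID start back to back, 107 bases apart, whereas in GENCODE v29, whose coordinates are used here for genes, TARID (minus strand, 133502252 to 133892802) starts inside TCF21. The 250 bases before the TCF21 start (chr6:133888863-133889112, plus strand, RefSeq, GRCh38.p14) are shown, with the 106 bases that also lie in the 250 bases before the TARID start in capitals.
TCF21: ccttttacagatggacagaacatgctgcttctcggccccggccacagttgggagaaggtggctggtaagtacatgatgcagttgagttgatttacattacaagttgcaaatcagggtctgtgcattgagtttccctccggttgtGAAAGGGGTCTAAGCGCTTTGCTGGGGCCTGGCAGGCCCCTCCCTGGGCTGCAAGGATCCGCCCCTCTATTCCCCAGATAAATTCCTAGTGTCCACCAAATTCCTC

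Called genes stood near each other more than once. Of the 45 called genes with a position, 12 had another called gene within 1000000 bases, in 4 groups, where 2.71% of 20874 tested genes had a called gene that near. The 12 include the called SPANX copies, and EYA4, TARID and TCF21, whose reads cannot be told apart with certainty. They are therefore not 12 separate observations. Besides EYA4, TARID and TCF21 (chromosome 6, 133240598 to 133895553), these included SVEP1 with LPAR1 (chromosome 9, 110365251 to 111038458), and LINC00632 with the SPANX genes (chromosome X, 140709562 to 141698739). Of the 13 other tested genes around SVEP1 and LPAR1, 8 had a negative log2 fold change (median -0.05). Of 11 around EYA4 and TCF21, 6 did (median -0.48), and of 6 around the SPANX genes, 5 did (median -0.63). Over all 554 uncalled neighbours, 285 were negative, with a median of -0.01. Chromosome X carried 8 of the 46 calls, 1.21% of its 662 tested genes, where 0.204% of all tested genes were called. Of these 8, 5 are LINC00632 and the SPANX genes. The window of 1000000 bases was chosen after this pattern had been seen.

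The remaining falls were mostly of part of the control level. PROS1, the anticoagulant protein S, fell by 1.72 (SE 0.32). Of the matrix, COL5A1, a fibrillar collagen chain, fell by 2.06 (SE 0.35), ADAMTS12, a matrix protease, by 4.39, SVEP1 by 5.03 and THSD4 by 2.79. INPP4B, a phosphatase of membrane inositol lipids, fell by 2.76 (SE 0.48), with 8.69, 5.08 and 1.72 CPM in the FASN knockdown and 29.4, 38.6 and 36.7 CPM in the control libraries. No FASN knockdown library reached a control for any of these genes. At the cell membrane and the cytoskeleton, the falls were ANK3 (by 1.90), SNTG1 (by 1.74), FHL1 (by 1.62), ARHGAP44 (by 1.84), LRRC4C (by 3.42), SH3BGRL2 (by 3.99), WDR72 (by 2.67) and WWC2 (by 0.97). The zinc finger genes ZNF479 and ZNF704 fell by 4.16 and by 1.36. Of the noncoding RNAs, LINC00632, the host of the circular RNA CDR1as, fell by 3.34, STARD13-AS, antisense to STARD13, by 5.20, and the uncharacterised ENSG00000271880 and ENSG00000290558 by 6.04 and by 9.11. Both of these have a low control level, with 1 and 0 counts over the FASN knockdown group against 129 and 231 over the control group. Of the genes in this paragraph, only STARD13-AS kept its call in all 6 fits without 1 library. The rest lost theirs in 3 to 6 of the fits, at up to 0.270 for ARHGAP44 without control replicate 2.

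The 6 genes that rose had a wide range of roles, and every one of them also had counts in each control library. COL4A6 (chromosome X, 108155607 to 108439497), a chain of basement membrane collagen, stood at 55.1, 53.9 and 59.4 CPM in the FASN knockdown libraries, against 2.44, 4.00 and 9.02 CPM in the control libraries, and rose by 3.45 (SE 0.53, edgeR adjusted p = 0.0120). PRICKLE1, of planar cell polarity, had 203, 225 and 113 CPM in the FASN knockdown against 43.4, 49.2 and 49.5 CPM in the control libraries, and rose by 1.93 (SE 0.31). CSMD2, a large transmembrane protein, had 25.9, 20.0 and 34.3 CPM in the FASN knockdown against 7.78, 7.92 and 5.92 CPM in the control libraries, and rose by 1.89 (SE 0.28). The lowest FASN knockdown library lay above the highest control for each of the 3. PRUNE2 rose by 2.18 (SE 0.41), the protocadherin gene PCDHGB1 by 1.67 (SE 0.30), and the long noncoding RNA ENSG00000271860 by 3.37 (SE 0.59), at 3.64, 4.07 and 1.40 CPM in the FASN knockdown libraries against 0.475, 0.169 and 0.210 CPM in the control libraries. Without control replicate 2 none of the 6 was called (COL4A6 at an edgeR adjusted p of 0.0948 and CSMD2 at 0.0769). CSMD2 was also lost without control replicate 3, and the other 4 were lost in 4 to 6 of the fits, at up to 0.186 for ENSG00000271860.

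Type IV collagen chains, which form the network of basement membranes, differed in direction. COL4A6 was the 1 called chain of 5 tested. COL4A5, which lies head to head with COL4A6, stood at 76.6, 70.3 and 108 CPM in the FASN knockdown libraries, against 12.0, 16.5 and 27.7 CPM in the control libraries, which is 2.18 higher on the log2 scale with an SE of 0.46 (edgeR adjusted p = 0.0742). COL4A4 was at 1.77 (SE 0.51), again without overlap. The main chains of most basement membranes lay the other way: COL4A1 had 6.27, 2.46 and 1.75 CPM in the FASN knockdown against 15.3, 14.5 and 8.02 CPM in the control libraries, and COL4A2 12.9, 6.44 and 12.1 CPM in the FASN knockdown against 26.6, 34.9 and 17.2 CPM in the control libraries. Their log2 fold changes were -1.84 (SE 0.52) and -1.31 (SE 0.39), at edgeR adjusted p of 0.236 and 0.265, so edgeR called COL4A6 alone, while DESeq2 also called COL4A5 and COL4A4 (higher) and COL4A1 (lower).

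The starts of COL4A6 and COL4A5 are 380 bases apart and face away from each other. The 250 bases before the COL4A6 start (chrX:108439459-108439708, minus strand, RefSeq, GRCh38.p14) are shown, with the 121 bases that also lie in the 250 bases before the COL4A5 start in capitals.
COL4A6: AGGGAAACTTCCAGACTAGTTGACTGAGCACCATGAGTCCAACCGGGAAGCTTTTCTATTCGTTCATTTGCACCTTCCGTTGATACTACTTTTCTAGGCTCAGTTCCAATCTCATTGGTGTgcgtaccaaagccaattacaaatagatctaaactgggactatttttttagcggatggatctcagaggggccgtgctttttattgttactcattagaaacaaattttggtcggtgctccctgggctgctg

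The clustered protocadherins, neuronal-type adhesion genes in 3 neighbouring clusters on chromosome 5, split by cluster. In the beta cluster, 13 of 16 tested genes lay below 0 on the log2 scale (median -0.90). An unadjusted p below 0.05 was reached by 10 of the 16, all lower, and by 9.08% of all tested genes. PCDHB16 had 0.771, 1.02 and 1.48 CPM in the FASN knockdown libraries, against 8.68, 5.92 and 5.05 CPM in the control libraries, at -2.57 on the log2 scale with an SE of 0.51 (edgeR adjusted p = 0.0564). PCDHB8 was at -3.30 (SE 0.69) and PCDHB10 at -2.22 (SE 0.46), both at an edgeR adjusted p of 0.0734. No beta gene was called by edgeR and 6 were by DESeq2, all lower, where DESeq2 called 1.53% of all tested genes. Of the 16, 9 separated the groups downwards, where 7.04% of all genes did. In the gamma cluster, 20 of 21 tested genes were positive, with a median of 0.88, and 3 separated the groups upwards, where 4.8% of all genes did. PCDHGB1 was the 1 called member, at 14.8, 20.5 and 16.0 CPM in the FASN knockdown against 5.00, 5.41 and 5.71 CPM in the control libraries. In the alpha cluster 10 of 14 were negative, with a median of -0.68. The gamma median rested on FASN knockdown replicate 3, without which it was 0.08, while the beta median was then -1.40. Gamma transcripts share their last exons, and beta genes are close copies, so the estimated counts of single members are uncertain. The cluster medians kept these signs in all alternatives in which they were computed.

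**Figure D3:**
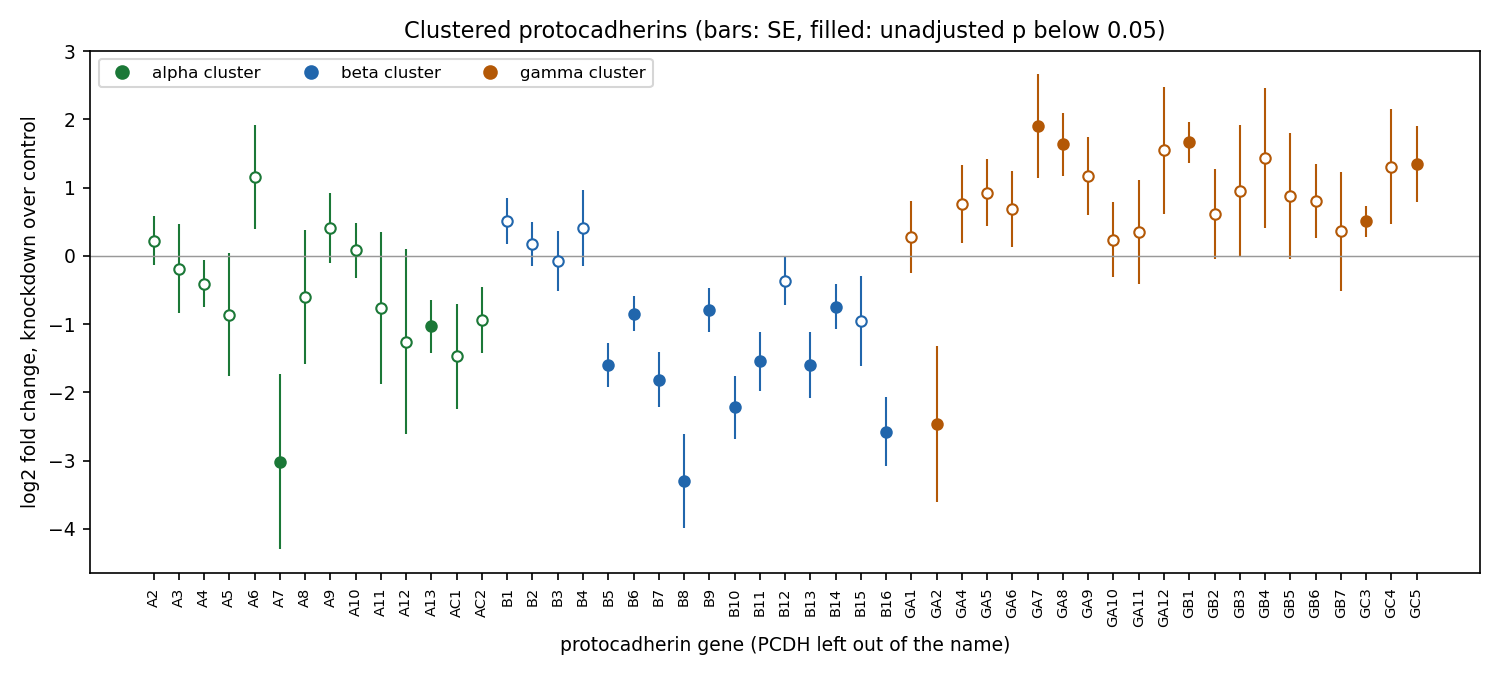
Log2 fold change with its SE (FASN knockdown over control, n = 3 each) for the 51 tested clustered protocadherins, ordered by name within the alpha, beta and gamma clusters, with filled points at an unadjusted p below 0.05. Most beta genes lie below 0 and most gamma genes above it.

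Matrix and adhesion genes as groups showed no common direction. Of 49 tested matrix genes edgeR called 1 higher and 1 lower (COL4A6 and COL5A1), with a median of -0.04, 22 positive and 27 negative. An unadjusted p below 0.05 was reached by 20 of them (12 higher, 8 lower) and by 9.08% of all tested genes. DESeq2 called 10 of the 49 (6 higher, 4 lower), where it called 1.53% of all tested genes. The fit with no filter on low counts called 13 of the 49, and 389 of all 43484 genes in that fit. POSTN, a matricellular protein, stood at 0.385, 1.19 and 0.495 CPM in the FASN knockdown libraries and 13.4, 18.3 and 49.2 CPM in the control libraries. It had no overlap but an edgeR adjusted p of 0.149, and was among the DESeq2 calls. Of 33 adhesion receptors edgeR called AJAP1 and ADGRL3, DESeq2 called 4 (2 higher, 2 lower), and the median was 0.14. CDH2, the mesenchymal N-cadherin, had 177, 165 and 76.6 CPM in the FASN knockdown and 22.5, 42.9 and 52.8 CPM in the control libraries, at 1.82 on the log2 scale with an SE of 0.50 (edgeR adjusted p = 0.223).

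No other gene of fatty acid synthesis was called by edgeR or DESeq2. FASN was the 1 called gene of 26 tested in fatty acid synthesis, and their median log2 fold change was 0.18, which turned to -0.12 on log2(TPM + 1). ACLY, which cleaves citrate to acetyl-CoA, averaged 303 CPM ± 101 in the FASN knockdown and 261 CPM ± 14.8 in the control libraries. ACACA, which makes malonyl-CoA, averaged 209 CPM ± 76.6 in the FASN knockdown and 210 CPM ± 17.3 in the control libraries (SD, n = 3 each). Downstream, the desaturase gene SCD was at 1493, 1842 and 343 CPM in the FASN knockdown libraries, against 472, 416 and 394 CPM in the control libraries. FASN knockdown replicates 1 and 2 lay above all controls and replicate 3 below them, and the log2 fold change of 1.52 (SE 0.52) did not pass the test (edgeR adjusted p = 0.372). SREBF1, which encodes a driver of this pathway, averaged 117 CPM ± 16.0 in the FASN knockdown and 71.6 CPM ± 20.8 in the control libraries (SD, n = 3 each), without overlap but at an edgeR adjusted p of 0.507.

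Sterol synthesis showed the same library pattern as SCD. The log2 fold change was above 0 for all 20 tested genes (median 0.91). An unadjusted p below 0.05 was reached by 11 of them and by 9.08% of all tested genes. None of the 20 was called by edgeR and 2 were by DESeq2, LSS among them, where DESeq2 called 1.53% of all tested genes. Relative to the control mean, the mean log2 CPM of the 20 genes was 0.91 and 1.33 in FASN knockdown replicates 1 and 2 and -0.37 in replicate 3, against -0.06 to 0.03 in the control libraries. LSS, which closes the sterol ring, had 122, 155 and 99.2 CPM in the FASN knockdown against 66.2, 69.1 and 59.2 CPM in the control libraries. LSS and MVK were among the 3 genes that separated the groups, as 4.8% of all tested genes did upwards, and the other 17 overlapped. The 2 libraries with high sterol genes are also those with the highest 7SL shares, and the part of 7SL in this was not tested beyond a fit with its log2 share as covariate, which gave a median of 0.67.

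Of the 106 tested genes of the other lipid lists, edgeR called 0 and DESeq2 called ABCG1 and SPTLC3, both higher. DESeq2 called 1.53% of all tested genes. Of the 106, 8 had an unadjusted p below 0.05, as did 9.08% of all tested genes. Of the sterol efflux carriers, ABCG1 stood at 0.315, 1.69 and 1.11 CPM in the FASN knockdown and 0.113, 0.0282 and 0.210 CPM in the control libraries, without overlap (edgeR adjusted p = 0.279), and ABCA1 at 8.44, 19.1 and 15.4 CPM in the FASN knockdown against 3.71, 10.1 and 8.71 CPM in the control libraries, with overlap (edgeR adjusted p = 0.575). Of 30 genes of fatty acid oxidation 18 were positive, with a median of 0.05 that was -0.30 on log2(TPM + 1), -0.12 with the 7SL share as covariate, -0.01 without control replicate 2, and -0.11 and -0.09 without FASN knockdown replicates 2 and 3. PPARGC1B, a coactivator of oxidation, had 48.1, 33.1 and 17.9 CPM in the FASN knockdown and 59.7, 56.6 and 47.9 CPM in the control libraries, and PPARGC1A 1.37, 1.44 and 0.669 CPM in the FASN knockdown against 8.09, 6.34 and 0.815 CPM in the control libraries. Medians of the 24 genes of uptake and lipid droplets and of the 36 of phospholipid and sphingolipid synthesis were 0.06 and 0.05. VLDLR had a log2 fold change of 1.15 and ACSL5 one of 1.32, both with overlap. In sphingolipid synthesis, SPTLC3, a subunit of the entry enzyme, stood at 17.9, 22.1 and 11.8 CPM in the FASN knockdown and 3.07, 3.24 and 5.68 CPM in the control libraries, with no overlap (log2 fold change 2.11, SE 0.44, edgeR adjusted p = 0.0748). LPCAT2, which rebuilds phosphatidylcholine, was at 0.99 (SE 0.31).

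Of the 381 tested genes of the stress and growth lists, edgeR called 0 and DESeq2 called 4, all lower (SLC7A11, NFE2L2, ALDOC and AHR). DESeq2 called 1.53% of all tested genes. An unadjusted p below 0.05 was reached by 21 of the 381 and by 9.08% of all tested genes. The fit with no filter on low counts called 13 of the 381, and 389 of all 43484 genes in that fit. NRF2 and oxidative stress genes were lower in all 3 FASN knockdown libraries than in any control on average, with 27 of 35 negative and a median of -0.16. SLC7A11, the cystine transporter, had 6.31, 4.15 and 3.43 CPM in the FASN knockdown and 17.8, 21.3 and 16.4 CPM in the control libraries (log2 fold change -1.99, SE 0.44, edgeR adjusted p = 0.0920), and NFE2L2, which encodes NRF2, was at -0.67 (SE 0.19). Of 26 p53 targets 24 were positive, with a median of 0.61. Their relative mean was 0.08, 0.57 and 1.25 in FASN knockdown replicates 1 to 3, so that replicate 3 carried most, and without it the median was 0.25. After CSM, the median log2 fold changes of the arrest, apoptosis and repair members were -0.10, -0.09 and -0.11. FAS had 53.4, 30.9 and 33.6 CPM in the FASN knockdown and 22.2, 23.0 and 19.7 CPM in the control libraries, and RPS27L 80.5, 190 and 180 CPM in the FASN knockdown against 27.8, 29.2 and 61.3 CPM in the control libraries, both without overlap.

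FASN knockdown replicate 3 stood low in several lists that overlapped between the groups, and control replicate 3 was the lowest control in all of these but the cell cycle. Relative to the control mean it was at -0.99 for glycolysis, -1.01 for hypoxia targets, -1.02 for NF-kB targets, -0.98 for ribosomal proteins, -0.79 for oxidative phosphorylation and -0.69 for the cell cycle. Control replicate 3 was at -0.55 for glycolysis, -0.72 for hypoxia targets, -0.69 for NF-kB targets, -0.32 for ribosomal proteins, -0.16 for oxidative phosphorylation and 0.20 for the cell cycle. The list medians were -0.39 for glycolysis (20 of 24 negative), -0.21 for hypoxia (0.05 without control replicate 2), -0.46 for NF-kB, -0.19 for ribosomal proteins (58 of 75 negative, 0.06 without control replicate 1 and 0.00 without FASN knockdown replicate 3), -0.05 for oxidative phosphorylation (0.12 without control replicate 1 and 0.15 without FASN knockdown replicate 3) and -0.08 for the cell cycle. Examples are HK2 at 226, 110 and 59.9 CPM in the FASN knockdown against 294, 461 and 170 CPM in the control libraries, and ALDOC at 1.12, 2.20 and 1.31 CPM in the FASN knockdown against 14.0, 7.63 and 2.13 CPM in the control libraries. KDM3A (-0.72), ANKRD37 (-1.55), TNFAIP2 (-1.41), NFKB2 (-0.47), RPL37 (-0.88), RPL31 (-0.73), NDUFS1 (-0.40) and COX7C (-0.43) were the leading members of the other lists by p. PCNA and CCNE2 of the cell cycle were at 0.49 and 0.89. The mitochondrially encoded genes ran the other way in replicate 3, at 0.34, -1.22 and 1.25 in the FASN knockdown libraries relative to the control mean. All 13 were positive (median 0.39), but the median was -0.14 on log2(TPM + 1) and -0.33 without FASN knockdown replicate 3, and the sign of MT-CO3 and MT-ND5 turned without replicate 3, to -0.49 and -0.25.

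Lists with mixed directions complete the account. Interferon targets had a median of 0.18, or -0.10 on log2(TPM + 1), -0.09 without control replicate 3 and -0.11 without FASN knockdown replicate 2, with TAP1 at 0.74 and HLA-B at 0.93. Stress response genes of the unfolded protein and integrated pathways had a median of 0.07, with PHGDH at -0.95. Immediate early genes had -0.23, with MYC at 206, 160 and 78.4 CPM in the FASN knockdown against 385, 284 and 236 CPM in the control libraries, without overlap. EGR3 was at 1.68, which turned to -0.67 without FASN knockdown replicate 3. Of 6 aryl hydrocarbon receptor genes the median was -0.35, with AHR at 2.21, 2.20 and 1.78 CPM in the FASN knockdown against 7.71, 10.5 and 1.95 CPM in the control libraries, and CYP1A2 at 2.26 on the log2 scale.

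**Figure D4:**
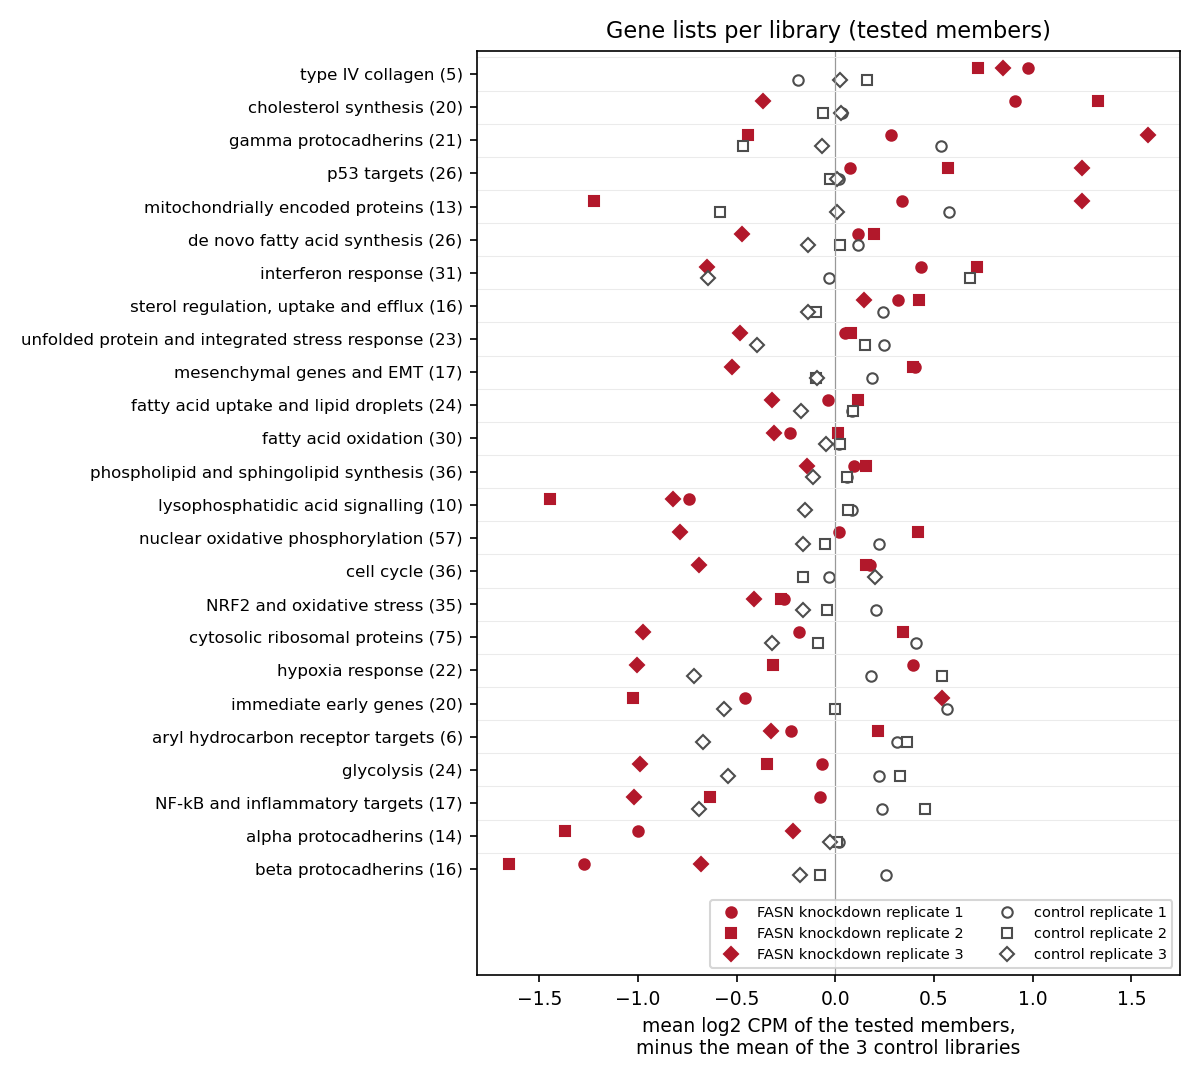
Mean log2 CPM of the tested members of each gene list, relative to the mean of the 3 control libraries, with filled symbols for FASN knockdown and open symbols for control libraries (replicate 1 circle, 2 square, 3 diamond; number of members in brackets). FASN knockdown replicate 3 lies apart from replicates 1 and 2 in sterol synthesis, ribosomal and respiratory lists, while beta protocadherins, type IV collagen and NRF2 genes separate the groups.

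The expression of urothelial markers was low. Of 11 uroplakin and urothelial factor genes 6 stayed under 1 CPM in all 6 libraries and 2 were at 0, and their summed level was 7.15, 11.3 and 18.7 CPM in the FASN knockdown against 9.43, 8.96 and 8.23 CPM in the control libraries. The 10 mesenchymal markers summed to 3630, 3352 and 1949 CPM in the FASN knockdown and 3371, 2821 and 2683 CPM in the control libraries. THY1 was at -1.27, KRT17 at -3.32 and KRT8 at 0.51, none of them called by edgeR or DESeq2. Human markers of other cell types were low apart from the myeloid list, and mouse transcripts are not in the tables. Endothelial markers summed to 16.9, 11.3 and 17.1 CPM in the FASN knockdown against 23.9, 22.1 and 20.7 CPM in the control libraries, with TIE1 at a log2 fold change of -0.85 and VWF at 0.59. Myeloid markers summed to 122, 102 and 98.5 CPM in the FASN knockdown against 130, 115 and 82.3 CPM in the control libraries. LYZ (1.27) and PTPRC (0.83) were highest in FASN knockdown replicate 3, where the summed list was the lowest of the FASN knockdown libraries. Most of the sum came from other members of the list. The fibroblast list was higher in the FASN knockdown libraries (37.7, 30.0 and 35.5 CPM) than in the control libraries (17.1, 15.9 and 16.99 CPM). Most of it was ACTA2, at 33.3, 25.1 and 31.9 CPM in the FASN knockdown and 7.89, 8.79 and 10.3 CPM in the control libraries, while PDGFRB lay at -2.10 and 7 of the 10 were under 1 CPM throughout. Adipocyte markers summed to at most 2.15 CPM and muscle markers to at most 0.763 CPM, with ADIPOQ at 0.93, PLIN1 at -0.30 and TNNT3 at 1.56. Of the 54 tested genes of the marker lists, edgeR called 0 and DESeq2 called ACTA2 and CDH2 (higher) and PDGFRB (lower). DESeq2 called 1.53% of all tested genes. Of the 54, 11 had an unadjusted p below 0.05, as did 9.08% of all tested genes. The part of host cells in the results was not tested.

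By class of RNA, transcripts annotated as protein coding took 68.6%, 58.4% and 70.1% of the counts in the FASN knockdown libraries, against 71.8%, 72.7% and 70.8% in the control libraries. The groups did not overlap, the difference was -6.06 percentage points, and the exact two-sided permutation test gave p = 0.1 (0.6 after Benjamini-Hochberg adjustment over the 12 classes). With 7SL left out of the totals the difference was -1.38, and without FASN knockdown replicate 2 it was -2.40. By gene class, protein-coding genes took 79.9%, 66.9% and 86.4% in the FASN knockdown and 83.9%, 84.2% and 83.4% in the control libraries, with overlap (exact two-sided permutation p = 0.4, 1 after the same adjustment). Long noncoding RNA took 3.29%, 2.12% and 5.62% in the FASN knockdown and 3.57%, 3.78% and 3.83% in the control libraries, retained-intron transcripts 4.77%, 3.14% and 7.11% in the FASN knockdown against 5.53%, 5.24% and 5.35% in the control libraries. In both classes FASN knockdown replicate 3 was the highest and replicate 2 the lowest of the 6. Among tested genes, the median log2 fold change was -0.02 for protein-coding, 0.17 for long noncoding RNA and 0.22 for the 263 small RNA genes.

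The libraries grown after CSM were not part of this contrast and measured the same genes in other tumours. The titles name UMUC3 FASN knockdown and control sh cells in both media. Any fixed difference between these cells besides FASN could therefore recur in both media. Its part in the values below was not tested. All 46 called genes kept their sign there, where 63.0% of all tested genes did, and 34 of the 46 were called again (31 lower and 3 higher, where 0.74% of all genes were called lower and 0.43% higher). That is 73.9% of the regular medium list and 12.9% of the 264 genes called after CSM, which are 1.17% of the tested genes. The median absolute log2 fold change of the 46 was 2.95 after CSM and 3.72 in regular medium. Both fits share 1 estimate of the spread. The 3 rises called again were CSMD2, COL4A6 and ENSG00000271860. AJAP1 had a log2 fold change of -6.19 after CSM and -6.53 in regular medium, TCF21 one of -7.27 after CSM and -6.17 in regular medium, and LPAR1 one of -5.73 after CSM and -6.22 in regular medium.

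FASN itself was not called after CSM. Its level was 50.9%, 38.5%, 69.8% and 111% of the mean of control after CSM in replicates 1 to 4 that carry the FASN knockdown label. The FASN level of replicate 4 thus went against its label, while most other called genes in that library followed it. Of the other 39 lower genes, 37, 38, 39 and 38 lay below all 4 control libraries after CSM in replicates 1 to 4, where 27.5%, 23.9%, 25.7% and 24.2% of all tested genes did. Of the 6 rises, 6, 6, 5 and 4 lay above all of those controls, where 30.6%, 26%, 27.3% and 24.4% of all tested genes did. In all 4 replicates at once, 36 of the 39 lay below, where 7.34% of all tested genes did, and 4 of the 6 lay above, where 8.86% did. LINC00632 stood apart in replicate 4, at 106 CPM, against 27.4 to 33.6 CPM in replicates 1 to 3. The 12 genes not called again were FASN, ENSG00000271880, STARD13-AS, LINC00632, WDR72, COL5A1, ANK3, ARHGAP44, WWC2, PCDHGB1, PRICKLE1 and PRUNE2. The test of the difference between the media called 0 genes by edgeR and 7 by DESeq2, with 1178 genes (5.22%) at an unadjusted p below 0.05. For FASN the log2 fold change differed by 1.38 between the media (unadjusted p = 0.00525, edgeR adjusted p = 0.942). STARD13-AS was at 0.769, 0.752, 0.982 and 1.87 CPM in the FASN knockdown after CSM and at 0.245, 0.0847 and 0.116 CPM in regular medium.

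**Figure D5:**
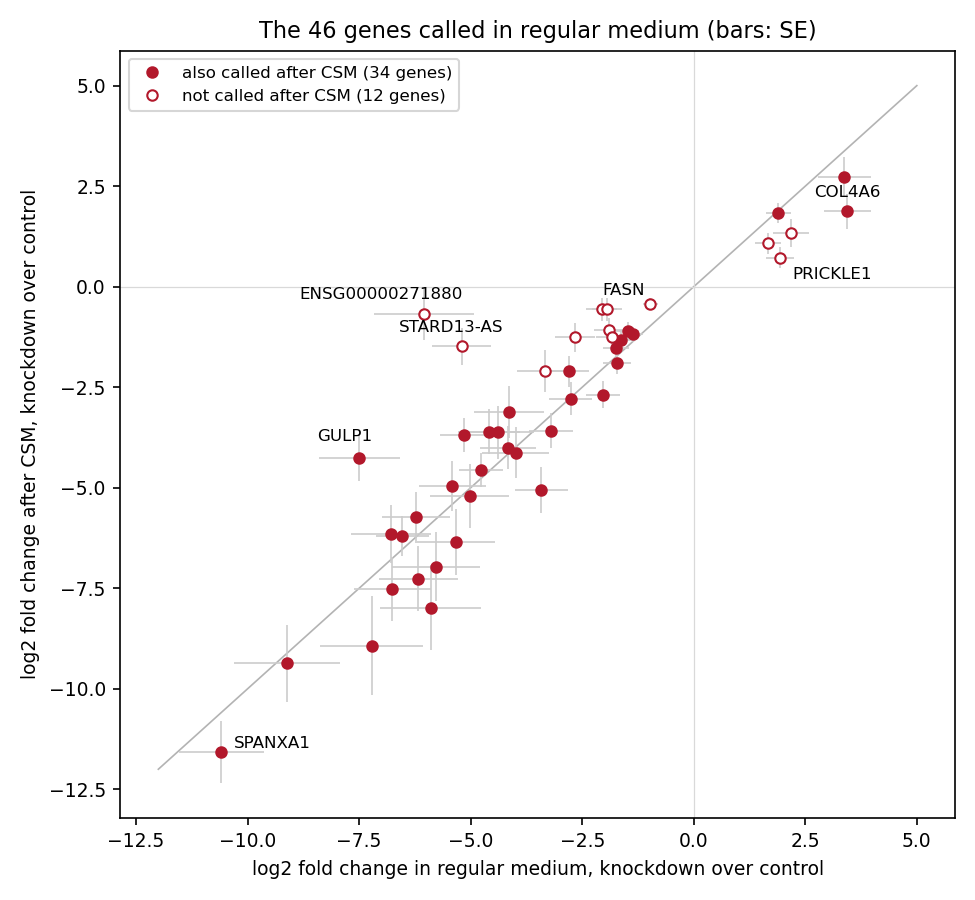
Log2 fold change after CSM (y axis, n = 4 each) against that in regular medium (x axis, n = 3 each), FASN knockdown over control with SE bars, for the 46 genes called in regular medium, with the line of equal change. All 46 lie on the same side of 0 in both media, and the 12 not called after CSM (open symbols) include FASN, STARD13-AS and ENSG00000271880.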

How the data were processed

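RNA sequencing of UMUC3 xenograft tissue was analysed in the 3 FASN knockdown and 3 control libraries from regular medium, with the 8 CSM libraries in the same fit. The authors deposited 1 Salmon table per library with an estimated count and a TPM per transcript, per the file headers, and the submitters' processing notes name FastQC, cutadapt, Salmon and GRCh38. No source used here gives the library type or strand. Estimated counts were summed to genes and rounded. Genes with low counts were removed by filterByExpr (minimum count 10, minimum total 15), and edgeR 4.0.16 (TMM, quasi-likelihood test, 4 groups, 10 residual degrees of freedom, R 4.3.3) was run with a threshold of 0.05 on the Benjamini-Hochberg adjusted p. DESeq2 1.42.0 and limma 3.58.1 (log2 of gene TPM plus 1 or 0.1) were alternatives. Coordinates are those of GENCODE v29, and promoter windows are from RefSeq, GRCh38.p14. Summed list levels are CPM on the same TMM-scaled totals. Intervals and floors (3 counts) cover counting error only. Named were all 6 rises, the 12 largest falls with a control mean of at least 2 CPM, and for each of the 31 gene lists its called members (up to 3) or, with none, the 2 with the smallest p. Some called or listed genes are not reported here. Other named genes were chosen after their values were seen. The comparison and the lists were chosen with earlier results of these data known. The fit was tested on simulated data with 22560 genes, where it recovered 10%, 72%, 92% and 100% of 50 genes changed by 1, 2, 3 and 5 on the log2 scale, with 4 false calls. The changed genes were drawn from those with a mean above 2 CPM. Each simulated gene had the same spread in all libraries, with no shift shared across genes. The real FASN knockdown libraries were less alike than the controls, so these rates may not carry over to them.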

Additional observations from a re-analysis of the deposited data

Results flagged for a closer look

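In 7 of 83 sets of 4 CSM libraries, 1 library stood apart from the other 3 by Dixon's criterion. Chance gives about 1 in 20 for normally distributed values, which counts near 0 are not. The 7 can therefore not be judged against that rate. TRPC4 had 0.177 CPM and KCNT2 0.0591 CPM in FASN knockdown after CSM replicate 1, and 0 in the other 3. With the others at 0, any reads in 1 library meet the criterion. LINC00632 had 106 CPM in FASN knockdown after CSM replicate 4, against 27.4 to 33.6 CPM in the others, and 432 CPM in control after CSM replicate 1, against 108 to 159 CPM in the others. PROS1 had 4.91 CPM in FASN knockdown after CSM replicate 3, against 3.42 to 3.48 CPM in the others. AJAP1 had 43.2 CPM and FHL1 57.2 CPM in control after CSM replicate 3, against 22.3 to 25.8 CPM and 37.3 to 38.2 CPM in the others.

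The knockdown effect on 2 list genes had opposite signs in the media. PPARGC1B differed by 1.05 on the log2 scale (0.32 after CSM and -0.73 in regular medium, unadjusted p = 0.0138, edgeR adjusted p = 0.942). KRT8 differed by -0.71 (-0.20 after CSM and 0.51 in regular medium, unadjusted p = 0.0211, edgeR adjusted p = 0.942). Neither difference passed the adjusted test.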

How the results depend on the processing

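The number of called genes depended on the processing, and so did the share of them that were higher, from 0% with limma to 36.4% with DESeq2. The called genes named here kept their direction in every alternative that tested them. Against 46 calls (6 higher and 40 lower, 13.0% higher), DESeq2 gave 346 (126 higher and 220 lower, 36.4% higher), no filter on low counts 389 (134 and 255, 34.4%), the 7SL share as covariate 134, the 6 libraries of the contrast alone 25, the replicate block 17, and limma on log2(TPM + 1) and log2(TPM + 0.1) 11 and 12. Without 1 library the count was 11 to 49. The calls shared with the CSM comparison were 34, against 196 with DESeq2, 198 without the filter, 77 with the covariate, 17 in the contrast alone, 15 with the block, 11 and 9 with limma, and 10 to 33 without 1 library. The media differed in 7 genes by DESeq2 and in 121 without the filter. FASN kept its direction and missed the threshold at -1.92 in the contrast alone (edgeR adjusted p = 0.0611), -1.94 with the replicate block (edgeR adjusted p = 0.0847) and -1.88 and -1.96 with limma (adjusted p = 0.930 and 0.836), and was -2.07 to -1.73 without 1 library. The median of all genes was -0.27 and -0.37 in limma on TPM. Replicate numbers did not pair the libraries (r of same-numbered deviations -0.19, 0.08 and -0.17). The share of protein-coding transcripts differed by -1.38 points with 7SL left out and by -8.28 to -2.40 points without 1 library. Directions that turned without 1 library were those of MT-CO3 (-0.49 to 1.36), MT-ND5 (-0.25 to 1.02), EGR3 (-0.67 to 2.20), PTPRC (-1.04 to 1.30), ADIPOQ (-0.14 to 1.30) and PLIN1 (-6.38 to 0.33, the lowest being a fit with 0 counts in the FASN knockdown libraries left). The cause was not tested. At 15810287 counts in the shallowest library, genes under 1 CPM rest on few reads.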
